A study of Rattus norvegicus with 30 samples.

Results

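The core circadian clock genes are described here in the oesophageal epithelium of rats: Clock, Bmal1 (listed under its older symbol Arntl), Per1, Per2, Per3, Cry1, Cry2, Nr1d1, Nr1d2 and Dbp. They were chosen by name, and all 10 were measured among the 14217 genes of the arrays. RNA from 30 male Sprague-Dawley rats was hybridised to Affymetrix rat arrays, 1 array per rat, and rats are named here by the number in their title. All rats, the controls included, had received 4 intragastric doses of 2 mg/kg of the oesophageal carcinogen N-nitrosomethylbenzylamine (NMBA) once a week from week 5, per the labels' protocols. Diets began at 4 weeks of age. Zinc-deficient (ZD) food was eaten ad libitum, while zinc-sufficient (ZS) rats were pair-fed to the deficient animals, so diet and feeding schedule cannot be told apart.

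The groups were miR-31 knockout rats on ZD (6 arrays), miR-31 knockout rats on ZS (4 arrays), unedited ZD rats given antimiR for 20 weeks (5 arrays), unedited ZD rats given antimiR for 5 weeks (5 arrays), untreated unedited ZD rats (5 arrays) and untreated unedited ZS rats (5 arrays). The knockout was constitutive, made with CRISPR/Cas9 in the Sprague-Dawley strain. AntimiR is a short oligonucleotide of locked nucleic acid that binds miR-31, a microRNA, and was injected into the tail vein as 20 mg/kg and then 9 doses of 6 mg/kg, with 20 further doses in the 20-week group. Untreated here means without oligonucleotide. Tissue was taken 48 h after the last antimiR dose or 15 weeks after the first NMBA dose. The labels do not say whether the 5-week group was killed at the same age as the others, and they do not give the hour of sampling. Differences of clock genes between groups, by diet, antimiR or genotype, therefore cannot be told apart from differences in the hour of sampling.

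The circadian clock is a transcriptional feedback loop found in most mammalian cells. CLOCK and BMAL1 together bind E-boxes and switch on the Per and Cry genes, whose proteins return to the nucleus and inhibit that pair. In a second loop the same pair drives Nr1d1 and Nr1d2 (REV-ERB alpha and beta), which repress Bmal1 through ROR elements, while Dbp and its relatives Tef and Hlf act through D-boxes that the repressor Nfil3 also binds. The genes therefore peak at different hours of the day, and clocks of the digestive tract are known to be set by feeding as well as by light.

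The promoters of 3 members are shown because between them they hold an E-box, its close variant the E'-box, a D-box and a ROR element. Each is the 250 bases before a RefSeq transcript start (assembly GRCr8), read on the gene's strand, with the elements in capitals. They lie at chr1:176766078-176766327 on the plus strand for Bmal1, chr9:99496994-99497243 on the minus strand for Per2 and chr10:84229455-84229704 on the minus strand for the first of 2 annotated starts of Nr1d1.
Bmal1: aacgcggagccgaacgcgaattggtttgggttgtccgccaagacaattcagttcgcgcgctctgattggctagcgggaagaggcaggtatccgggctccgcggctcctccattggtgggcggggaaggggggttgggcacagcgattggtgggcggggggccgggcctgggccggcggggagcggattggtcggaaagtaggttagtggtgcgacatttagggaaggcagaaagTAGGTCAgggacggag
Per2: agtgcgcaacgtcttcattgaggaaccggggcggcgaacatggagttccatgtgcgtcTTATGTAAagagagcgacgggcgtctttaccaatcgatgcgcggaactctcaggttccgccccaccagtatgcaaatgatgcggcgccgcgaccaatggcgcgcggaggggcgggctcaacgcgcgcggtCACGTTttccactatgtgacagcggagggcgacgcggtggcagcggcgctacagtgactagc
Nr1d1: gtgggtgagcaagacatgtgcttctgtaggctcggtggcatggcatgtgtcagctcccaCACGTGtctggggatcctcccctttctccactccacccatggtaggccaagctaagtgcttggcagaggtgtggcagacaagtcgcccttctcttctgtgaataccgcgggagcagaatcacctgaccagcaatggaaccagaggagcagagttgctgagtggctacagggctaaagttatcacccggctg

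Bmal1 held the ROR element TAGGTCA, starting 16 bases upstream of the transcript start. Per2 held the E'-box CACGTT 62 bases and the D-box TTATGTAA 192 bases upstream. Nr1d1 held the E-box CACGTG 191 bases upstream. The search covered both strands, no motif overlapped another, and windows were at hand for 9 of the 10 members (Cry1 was not among them). It found an element in 4 members, the other being Cry2, with an E'-box on the opposite strand 212 bases upstream. The second Nr1d1 start also had an E'-box on the opposite strand, 174 bases upstream. The window of the first Nr1d1 start lies inside the gene, as do the only windows of Per1 and Per3. For Per1 and Per3 the bases before the outer end of the gene were therefore not searched. Among all 33469 promoter windows of this length, 5.59% held the E-box, 4.07% the E'-box, 0.828% the D-box and 2.26% the ROR element. A match describes these letters and is not evidence of binding.

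The microRNA removed or targeted in the treated groups is rno-miR-31a-5p, at chr5:108714906-108714927 on the minus strand of GRCr8. It is given in RefSeq's mature form, with the seed (bases 2 to 8) in capitals.
rno-miR-31a-5p: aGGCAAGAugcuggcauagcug

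Levels below are the authors' log2 array values, on which a difference of 1 is a doubling of signal. Array medians lay between 5.81 and 5.93 in the 10 knockout arrays and between 5.37 and 5.45 in the 20 arrays of unedited rats, and no array was a copy of another. The sets were taken as normalized separately, so levels are tested within a set only. The single test across sets compares diet differences, each taken within its own set. Markers of squamous epithelium, among them the keratins Krt5 and Krt14, averaged at least 11.78 in every array (7 of 8 measured). Smooth muscle markers such as Myh11 were also well represented. Their mean over 10 genes ran between 9.38 and 10.96 in ZD knockout, 10.80 and 11.75 in ZS knockout, 7.10 and 8.38 in untreated ZD and 9.11 and 10.57 in untreated ZS rats. In whole tissue of this kind, fewer cells of a type and less RNA per cell cannot be told apart. Differences were tested with limma, with Benjamini-Hochberg adjustment over all 14217 genes and a threshold of 0.05. Each p-value rests on a spread between rats that is pooled over all groups of both sets, not only the groups compared.

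**Figure D1:**
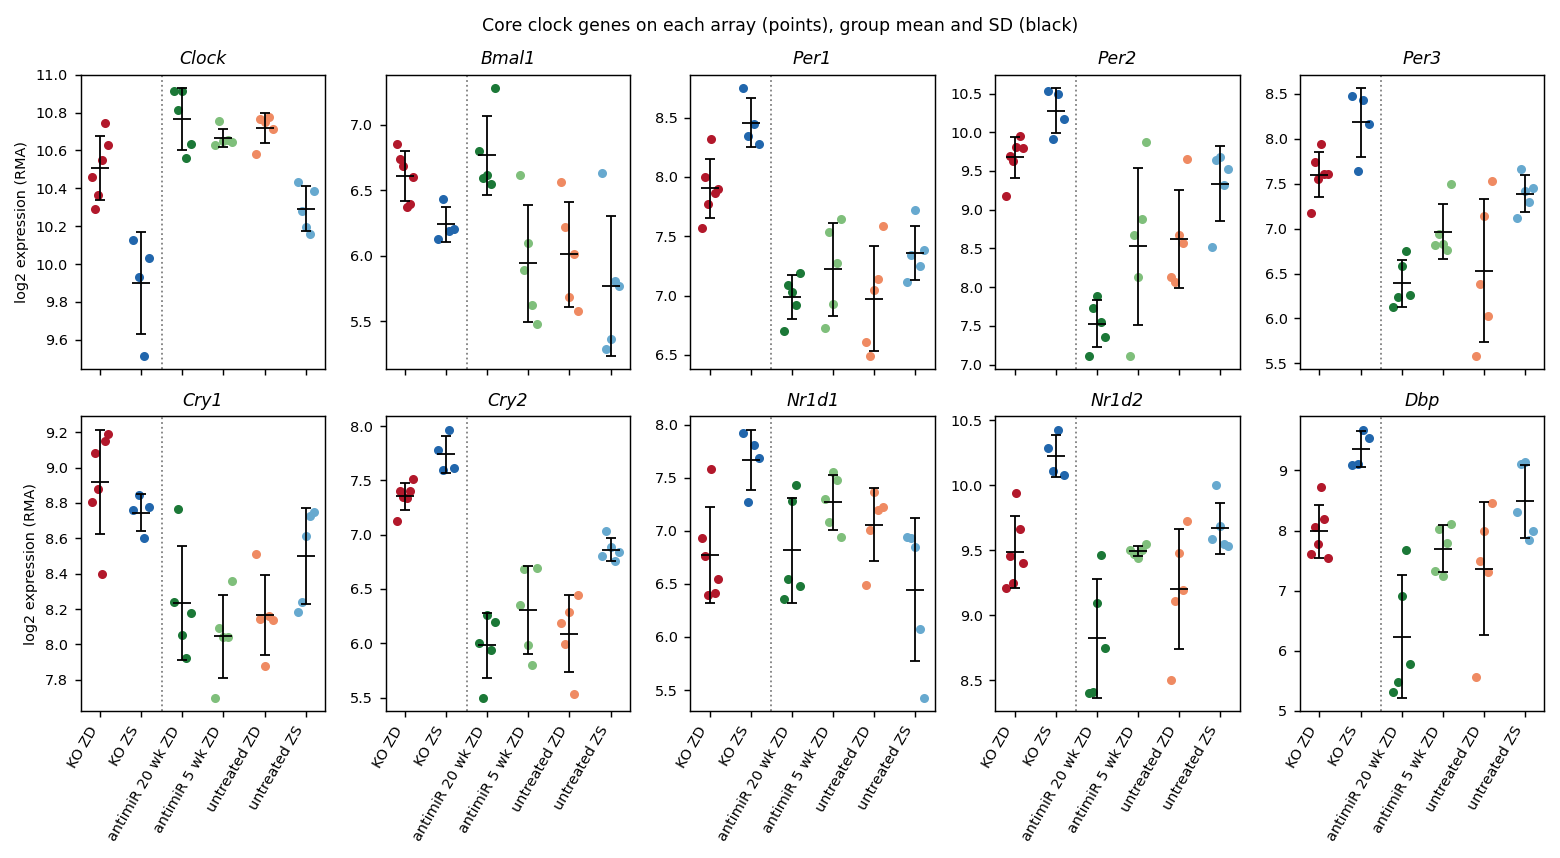
Log2 array value of each clock gene (1 panel per gene) in every rat, with groups along the horizontal axis, coloured points for arrays, and black marks and bars for the group mean and SD. Clock lies higher and Cry2 lower in untreated ZD than in untreated ZS rats with no overlap, and Dbp and Per2 spread widely within the groups of unedited rats.

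In unedited rats, zinc deficiency went with a higher level of the activator Clock and lower levels of the repressors Cry2 and Per3. These 3 of the 10 members passed the test, where 13.9% of all genes did. Clock was 1.34-fold higher, Cry2 1.71-fold lower and Per3 1.81-fold lower in ZD rats. The median difference of the 10 was -0.43 log2, against 0.0036 over all genes.

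Clock (chr14:32262747-32346872, GRCr8), a DNA-binding subunit of the activator, read 10.58, 10.77, 10.75, 10.78 and 10.71 in the untreated ZD rats 11 to 15, against 10.43, 10.28, 10.20, 10.16 and 10.39 in the untreated ZS rats 16 to 20. Every ZD rat was above every ZS rat. The difference was 0.43 ± 0.10 log2 (SE, limma adjusted p = 0.00449). Its partner Bmal1 (chr1:176766222-176864741) read 6.57, 6.22, 5.69, 6.02 and 5.58 in ZD rats and 6.63, 5.29, 5.36, 5.81 and 5.77 in ZS rats, groups that overlapped almost wholly. Its difference of 0.24 ± 0.22 log2 did not pass (limma adjusted p = 0.518), with a 95% interval of -0.21 to 0.69.

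Among the repressors, Cry2 (chr3:98830479-98860437), a cryptochrome that holds CLOCK and BMAL1 inactive, read 6.19, 6.00, 6.28, 5.53 and 6.44 in ZD rats, against 6.81, 7.03, 6.88, 6.75 and 6.84 in ZS rats. No ZD rat reached the lowest ZS rat. It fell by 0.77 ± 0.16 log2 (limma adjusted p = 0.00267). Clock and Cry2 were the 2 members whose groups did not overlap, and 11.4% of all genes had such groups.

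Per3 (chr5:166740914-166778243), the period gene regarded as least needed for rhythm in mice, read 5.58, 6.39, 7.14, 6.03 and 7.53 in ZD rats, against 7.11, 7.67, 7.41, 7.30 and 7.45 in ZS rats. The ZD rats were spread over a much wider range, and rats 13 and 15 lay among the ZS rats. Per3 fell by 0.86 ± 0.25 log2 (limma adjusted p = 0.022). That call was lost on leaving out ZD rat 11 (adjusted p = 0.0754), 12 (0.0536) or 14 (0.0782) or ZS rat 17 (0.0545).

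The other repressors did not pass. Per2 (chr9:99454828-99497069), which inhibits the activator together with the cryptochromes, read 8.13, 8.07, 8.67, 8.58 and 9.65 in ZD rats, against 8.51, 9.64, 9.68, 9.32 and 9.53 in ZS rats. ZD rat 15 was among the highest and the other 4 among the lowest, for a difference of -0.72 ± 0.34 log2 (limma adjusted p = 0.165). Per1 (chr10:54299002-54313804), a period gene that also responds directly to hormonal and light cues, differed by -0.39 ± 0.18 log2 (0.164). Cry1 (chr7:20417526-20481791), the cryptochrome with the stronger repression in mice, differed by -0.34 ± 0.16 log2 (0.161).

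Of the genes that feed back on Bmal1, Nr1d1 (chr10:84224599-84231812) read 6.49, 7.01, 7.36, 7.20 and 7.23 in ZD rats and 6.94, 6.93, 6.85, 6.08 and 5.43 in ZS rats. ZS rats 19 and 20 were the lowest of all, and the difference of 0.61 ± 0.27 log2 did not pass (limma adjusted p = 0.13). Its relative Nr1d2 (chr15:9955034-9981329) leaned the other way, by -0.47 ± 0.19 log2 (0.0967). Dbp (chr1:105312256-105317205), an output transcription factor whose RNA is among the most strongly cycling in liver, read 5.57, 7.50, 7.99, 7.32 and 8.46 in ZD rats, against 8.31, 9.11, 9.15, 7.85 and 7.99 in ZS rats. ZD rat 11 stood far below all others. The difference of -1.12 ± 0.43 log2 did not pass (limma adjusted p = 0.0828).

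At an unadjusted p under 0.05, 9 of the 10 members differed, all but Bmal1, where 28% of all genes did. Leaving out ZD rat 15 brought the number past the adjusted threshold to 7 (17.1% of all genes), adding Per1, Per2, Nr1d2 and Dbp to the other 3. Smooth muscle moved with the diet: 9 of its 10 markers fell (median -2.30 log2), all 10 without overlap. The endothelial markers Kdr and Flt1 (2 of 5 measured) and the leukocyte marker Lyz2 (1 of 8) rose. With the mean smooth muscle level as a covariate, no member passed (0.851% of all genes did). Clock then stood at 0.20 log2 (limma adjusted p = 0.447), Cry2 at -0.82 (0.0757) and Per3 at -0.79 (0.286). The mean smooth muscle level did not overlap between untreated ZD and ZS rats, so these fits separate it only poorly from diet. The part of the tissue mixture in the diet differences was not tested.

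Probe sets of a gene did not always match. Clock had 4, which differed between ZD and ZS unedited rats by 0.43, 0.15, 0.52 and 0.27 log2 in order of brightness, and the probe sets at 0.43 and 0.52 passed. Per3 and Cry2 each had a second, dim probe set, with differences of -0.05 and -0.24 log2 that did not pass (limma adjusted p = 0.768 and 0.0741). Per2 had a second probe set of mean 6.52, on which its differences were small in every comparison. It gave -0.05 log2 for diet in unedited rats, 0.06 for diet in knockout rats, -0.10 for 20 weeks of antimiR and -0.11 for 20 against 5 weeks, none past the threshold. Values for Per2 elsewhere in the text are from the brighter probe set, unless another probe set is named.

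The wider clock was followed in 21 further genes, of which 17 were measured. In unedited rats 3 of these 17 passed in the ZD against ZS comparison, where 13.9% of all genes did. Hlf fell by 1.52 ± 0.22 log2 (limma adjusted p = 0.000115), Tef fell by 0.90 ± 0.17 log2 (0.00145) and Nfil3 rose by 0.84 ± 0.22 log2 (0.0128). Hlf and Tef encode activators at D-boxes, and Nfil3 encodes the repressor at the same element. Next was Btrc, a ubiquitin ligase subunit that acts on PER proteins, at -0.36 log2 (0.0669). Genes that glucocorticoids are known to induce, which include clock-timed targets, were mixed. Of 8 measured of 9, Tsc22d3 fell by 1.19 and Sgk1 fell by 0.69 log2, while Cebpd rose by 0.87 and Nfkbia rose by 0.60 log2.

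In miR-31 knockout rats the same diet comparison gave 5 of 10 members past the threshold, where 21.4% of all genes passed. Clock was 1.52-fold higher in ZD knockout rats, and Nr1d2, Nr1d1, Dbp and Per1 were 1.67-fold, 1.86-fold, 2.58-fold and 1.47-fold lower. The median difference of the 10 was -0.57 log2, against 0.0052 over all genes. Clock (higher) and Cry2, Nr1d2 and Dbp (lower) were the 4 members without overlap between the groups, against 14.3% of all genes. At an unadjusted p under 0.05, 7 of the 10 differed, against 34.5% of all genes.

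Clock read between 10.29 and 10.75 (median 10.50) in the 6 ZD knockout rats, against 10.12, 9.93, 9.51 and 10.03 in the ZS knockout rats 30 to 33. All ZD rats lay above all ZS rats, by 0.61 ± 0.10 log2 on average (limma adjusted p = 0.000113). Its dimmer probe sets gave 0.60 and 0.94 log2, which passed, and 0.16 log2, which did not (adjusted p = 0.54). Bmal1 ran between 6.37 and 6.85 (median 6.64) in ZD knockout rats and read 6.13, 6.44, 6.19 and 6.20 in ZS knockout rats. Its 0.37 ± 0.22 log2 did not pass (limma adjusted p = 0.255).

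Dbp read between 7.55 and 8.73 (median 7.91) in ZD knockout rats, against 9.09, 9.11, 9.68 and 9.54 in ZS knockout rats. The highest ZD rat, 37, stayed below every ZS rat. Dbp fell by 1.37 ± 0.44 log2 (limma adjusted p = 0.0274). Nr1d2 read between 9.21 and 9.94 (median 9.43) in ZD knockout rats, against 10.29, 10.11, 10.43 and 10.08 in ZS knockout rats, and it fell by 0.74 ± 0.19 log2 (0.00745). These groups did not overlap either. Its 2 dimmer probe sets fell by 0.89 and 0.93 log2.

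Nr1d1 read between 6.40 and 7.58 (median 6.65) in ZD knockout rats, against 7.92, 7.27, 7.80 and 7.69 in ZS knockout rats. Only ZD rat 37 reached the range of the ZS rats. Nr1d1 fell by 0.90 ± 0.27 log2 (limma adjusted p = 0.0207). Per1 read between 7.57 and 8.32 (median 7.88) in ZD knockout rats, against 8.75, 8.35, 8.45 and 8.28 in ZS knockout rats, groups that met at a single ZD rat. It fell by 0.55 ± 0.19 log2 (0.0351).

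The remaining 4 did not pass in knockout rats: Cry2 differed by -0.38 ± 0.17 log2 (limma adjusted p = 0.1), Per3 by -0.58 ± 0.25 (0.104), Per2 by -0.61 ± 0.35 (0.221) and Cry1 by 0.17 ± 0.16 (0.486). Cry2 was nonetheless between 7.13 and 7.51 (median 7.37) in ZD rats, against 7.78, 7.60, 7.97 and 7.61 in ZS rats, without overlap. Fitted to the knockout arrays alone, the differences were the same and the spread came from those arrays only. Then 8 members passed (14.9% of all genes), with Cry2, Per2 and Bmal1 added to the 5. Clock and Nr1d2 passed whichever rat was left out. Without ZS rat 32 they were the only members to pass, with 11% of all genes. The number was 3 without ZS rat 30 (Clock, Nr1d2 and Dbp, with 22.8% of all genes). It was also 3 without ZD rat 34 (18% of all genes) or ZD rat 39 (17%), where Clock, Nr1d1 and Nr1d2 passed. Per1 was lost without any of ZS rats 30 and 32 or ZD rats 34, 36, 38 and 39 (adjusted p = 0.0539 to 0.109), Dbp without ZS rats 32 or 33 or ZD rats 34 or 39 (0.0527 to 0.0978), and Nr1d1 without ZS rats 30 (0.0537) or 32 (0.0727).

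Of the 17 further clock genes, Tef alone passed in the knockout diet comparison, where 21.4% of all genes did. Tef fell by 0.63 ± 0.18 log2 (limma adjusted p = 0.0137). Nfil3 stood at 0.56 log2 (0.0829), Bhlhe41, a repressor that competes for E-boxes, at -1.09 (0.0847) and Rora, an activator at ROR elements, at 0.53 (0.0927). Markers of other cells moved here too: 4 of 10 smooth muscle (median -1.25 log2), 3 of 7 fibroblast and 4 of 8 leukocyte genes fell. The mean leukocyte level spread widely among ZS knockout rats, between 6.93 and 8.97. It overlapped the 6.77 to 7.16 of ZD knockout rats. Of the 7 squamous genes measured, Sprr1a alone passed and was higher. The median of those 7 was 0.03 log2, with 3 of them below 0. With the smooth muscle level as a covariate, Clock was the only member to pass (10.9% of all genes). Nr1d2 then stood at -0.63 log2 (limma adjusted p = 0.0607), Nr1d1 at -0.81 (0.101), Dbp at -1.29 (0.104) and Per1 at -0.64 (0.0526).

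**Figure D2:**
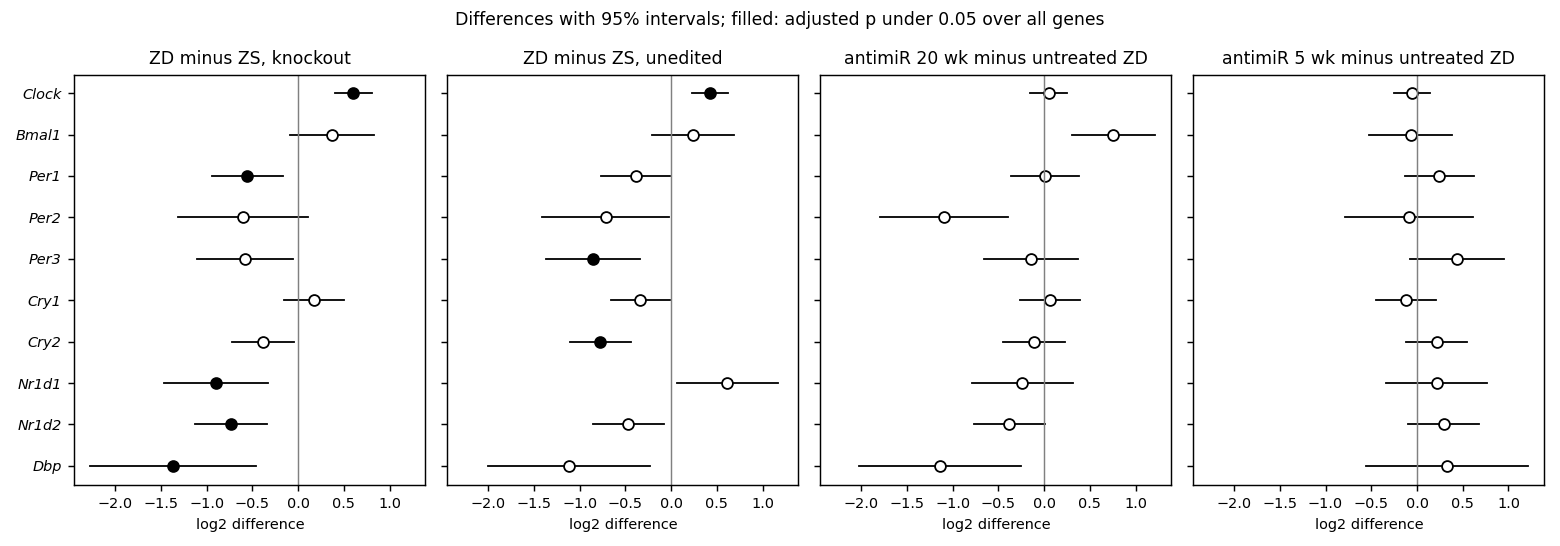
Difference in log2 array value of each clock gene in 4 comparisons (1 panel each: diet in knockout rats, diet in unedited rats, and 20 and 5 weeks of antimiR against untreated ZD), with circles for the limma estimates, lines for 95% intervals and filled circles for those past the adjusted threshold. Clock is to the right of 0 in both diet comparisons, and Nr1d1 lies on opposite sides of 0 in knockout and unedited rats.

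The diet difference itself was compared between knockout and unedited rats. A single member differed, Nr1d1, where 8.39% of all genes did. Its ZD minus ZS difference was lower in knockout rats by 1.51 log2 (difference -1.51 ± 0.38, 95% interval -2.30 to -0.72, limma adjusted p = 0.0169). It passed in all 20 fits that left out 1 rat, where the difference ran between -1.67 and -1.26 log2. Leukocyte and endothelial markers also differed in this sense, 5 of 8 and 2 of 5 being more negative in knockout rats, with Cd74 at -1.16 and Kdr at -1.12 log2. Leukocyte levels spread widely among ZS knockout rats, as given above. The part of these markers in the Nr1d1 result was not tested. For the other members no difference between genotypes was established. Cry1 alone of them had a 95% interval that excluded 0 (0.04 to 0.97 log2), and it did not pass (limma adjusted p = 0.166). The interval was -0.10 to 0.46 log2 for Clock, -0.09 to 0.87 for Cry2 and -1.52 to 1.01 for Dbp. At an unadjusted p under 0.05, 2 of the 10 members and 3327 of the 14217 genes differed. The dimmer Clock probe sets disagreed, with 0.45 and 0.68 log2 for 2 of them (adjusted p = 0.0259 and 0.0487) and -0.36 log2 for the other (0.395). Of the further clock genes Hlf passed, at 0.99 ± 0.32 log2 (limma adjusted p = 0.04996), its diet difference being -0.52 log2 in knockout and -1.52 log2 in unedited rats. Genotype, experiment and normalization set cannot be told apart in this comparison.

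Levels in knockout and unedited rats can only be set side by side, by each gene's percentile among all genes of its own array. Clock averaged the 88.9 percentile in ZS knockout and 92.9 in untreated ZS rats. Per2 stood at 86.6 in ZD knockout and 76.2 in untreated ZD rats, and Cry2 at 52.2 and 41.1. Nr1d1 had 56.5 in ZS knockout and 45.5 in untreated ZS rats, and 43.9 in ZD knockout and 54.0 in untreated ZD rats. On this scale too, Nr1d1 was ordered oppositely by diet in both genotypes.

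AntimiR given for 5 weeks left no member past the threshold. None of the 14217 genes passed (0%) by limma, and at an unadjusted p under 0.05 no member and 7.18% of all genes differed. Differences from untreated ZD rats ran between -0.12 log2 for Cry1 (95% interval -0.44 to 0.20) and 0.43 log2 for Per3 (-0.08 to 0.95). Bmal1 read 6.61, 5.90, 6.10, 5.63 and 5.48 in the rats 6 to 10 of the 5-week group, a span as wide as that of the untreated ZD rats given above. The interval was -0.79 to 0.61 log2 for Per2 and -0.25 to 0.15 for Clock.

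AntimiR given for 20 weeks also left no member past the threshold by limma, with 0.647% of all genes called. At an unadjusted p under 0.05, 3 members (Bmal1, Per2 and Dbp) and 14.8% of all genes differed. Bmal1 read 6.80, 6.59, 6.62, 6.55 and 7.28 in the rats 1 to 5 of the 20-week group, against the 5.58 to 6.57 of untreated ZD rats. All but rat 4 were above the highest untreated rat, rats 2 and 3 only narrowly. The group means differed by 0.76 ± 0.22 log2 (limma adjusted p = 0.0989). Per2 read 7.11, 7.73, 7.88, 7.55 and 7.35 after 20 weeks, below every untreated ZD rat (8.07 to 9.65). It was the single member without overlap, against 2.6% of all genes, and its -1.09 ± 0.34 log2 did not pass (limma adjusted p = 0.119).

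Dbp read 5.32, 5.48, 6.91, 7.68 and 5.78 after 20 weeks of antimiR, against 5.57 to 8.46 in untreated ZD rats. Rats 1, 2 and 5 of the 20-week group and untreated rat 11 formed the low end, and the difference of -1.13 ± 0.43 log2 did not pass (limma adjusted p = 0.204). Without untreated rat 11 Dbp passed at -1.58 log2 (adjusted p = 0.0497), as the only member, with 0.689% of all genes. None of the 17 further clock genes passed. Tef stood at -0.57 (0.114), Npas2, a relative of Clock that also partners BMAL1, at 1.07 (0.163) and Usp2, a deubiquitinase of clock proteins, at -0.60 log2 (0.167). These comparisons use the same untreated ZD rats as the diet comparison in unedited rats. Smooth muscle markers were higher by a median of 1.12 log2 in the 20-week group, none of the 10 past the threshold. With their mean level as a covariate, still no member passed, and 28 genes did (0.197%).

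Set against the 5-week group, the 20-week group again had no member past the threshold by limma, with 0.0211% of all genes called. At an unadjusted p under 0.05, 5 members and 6.11% of all genes differed. Bmal1 was at 0.83 ± 0.22 log2 (limma adjusted p = 0.338), Dbp at -1.47 ± 0.43 (0.4), Nr1d2 at -0.67 ± 0.19 (0.357), Per2 2.01-fold lower (SE 0.34 log2, 0.575) and Per3 at -0.58 ± 0.25 (0.756). Per3 read 6.12, 6.24, 6.58, 6.76 and 6.26 after 20 weeks, against 6.81, 6.94, 6.83, 6.76 and 7.49 after 5 weeks, and was the single member without overlap (0.943% of all genes), though the 2 values of 6.76 parted only beyond the second decimal. Tef, the further clock gene nearest the threshold, stood at -0.81 log2 (0.123). The labels do not settle whether age at sampling and time since the last dose also differ between these groups.

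The spread between rats of the same group was wide for most members. In unedited rats the within-group SD of Dbp was 0.83 log2, larger than that of 98.6% of all genes. It was 0.66 for Per2 (97.3%), 0.47 for Nr1d1 (93.9%), 0.46 for Per3 (93.5%) and 0.43 for Bmal1 (92.6%). The median gene had 0.16. Clock was the exception at 0.11 log2, above 16.5% of genes. In knockout rats the SDs of Dbp (0.39 log2, above 90.4% of genes), Per2 (0.28, 81.1%) and Bmal1 (0.17, 57.2%) were smaller, and that of Clock was larger (0.21, 70.1%). The difference in spread between the sets was not tested.

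Within groups, rats with more Bmal1 had less Per2. After centring each gene on its group mean, the pair correlated at r = -0.83 and rho = -0.89 over the 20 arrays of unedited rats (permutation p = 2e-05 for r and 1e-05 for rho, the smallest that 100000 permutations can give, adjusted over 18 relations 0.00036 and 0.00018). Without the 2 arrays farthest from the median of Bmal1, r was -0.76. In the 10 knockout arrays r was -0.83 and rho -0.84 (permutation p = 0.00094 and 0.00192, adjusted 0.00564 and 0.00734), and -0.82 without the 2 farthest. The 2 genes are known to peak at opposite times of day in rodent tissues, and the part of the sampling hour in this correlation was not tested.

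**Figure D3:**
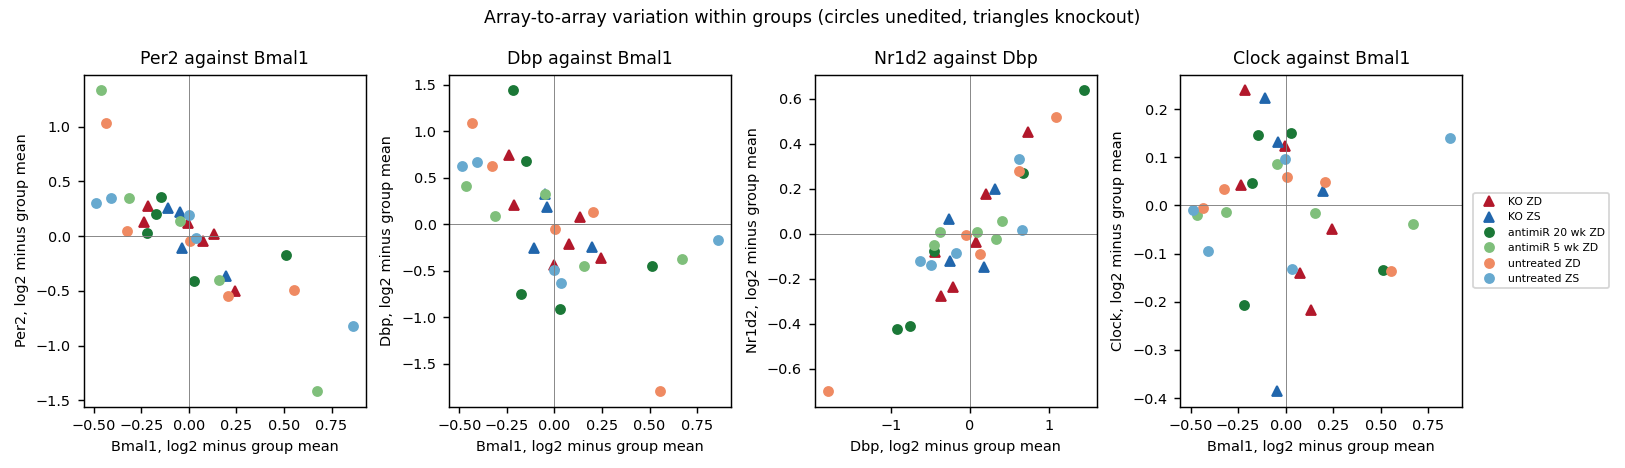
Group-centred log2 values of Per2, Dbp and Clock against Bmal1, and of Nr1d2 against Dbp (1 panel per pair), with 1 point per array, triangles for knockout and circles for unedited rats, and colours for groups. Per2 is lower where Bmal1 is higher in both sets of arrays (r = -0.83 in each), and Nr1d2 follows Dbp (r = 0.91 over all 30).

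Other members followed Per2 in unedited rats. Correlations with Bmal1 were r = -0.65 and rho = -0.66 for Per1 (permutation p = 0.00459 and 0.00571, adjusted 0.0165 and 0.0171), and r = -0.65 and rho = -0.72 for Per3 (0.00091 and 0.00135, adjusted 0.00564 and 0.00734). They were r = -0.61 and rho = -0.65 for Dbp (0.00224 and 0.00172, adjusted 0.0101 and 0.00734), and r = -0.50 and rho = -0.65 for Nr1d2 (0.0138 and 0.00204, adjusted 0.031 and 0.00734). Without the 2 farthest arrays these 4 were -0.57, -0.72, -0.72 and -0.63. Clock did not follow its partner (r = 0.03, rho = 0.02, permutation p = 0.918 and 0.921, the same after adjustment).

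Cry1, Cry2 and Nr1d1 showed no relation past the threshold in unedited rats either, with r = -0.16, -0.11 and -0.21, rho = -0.13, -0.29 and -0.32 and adjusted permutation p of 0.623, 0.709 and 0.615 for r. Nr1d1 reached -0.50 without the 2 farthest arrays. In the knockout arrays Nr1d2 (r = -0.81, rho = -0.81, permutation p = 0.0109 and 0.0136, adjusted 0.028 and 0.035) and Per3 (r = -0.75, rho = -0.75, permutation p = 0.00888 and 0.0184, adjusted 0.0266 and 0.0414) passed, at -0.65 and -0.56 without the 2 farthest. Per1 (-0.66, adjusted permutation p = 0.108) and Dbp (-0.65, 0.124) did not, and stood at -0.25 and -0.35 without the 2 farthest. Leaving out those arrays also narrows the range of Bmal1, and the reason for the weaker values was not tested. Striated muscle markers also varied within groups, between 4.83 and 9.85 in mean level among untreated ZD rats. With the smooth and striated muscle levels removed, Per2 and Bmal1 correlated at -0.85 in unedited and -0.89 in knockout arrays.

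The genes most like Dbp were found among 8870 genes of mean log2 at or above 6, by r of group-centred values over all 30 arrays. They were Nr1d2 (0.91), Tef (0.85), Bhlhe41 (0.81), Per3 (0.76), Tspan4 (0.72) and Nr1d1 (0.65). Of these 6, 3 are members and 2 (Tef and Bhlhe41) are on the list of further clock genes. The likeness to Nr1d2 was 0.94 in unedited and 0.81 in knockout arrays. Lowest were Pcyox1 (-0.67), Adam17 (-0.62), Bmal1 (-0.61), Stmn4 (-0.60), Dipk2a (-0.59) and Plau (-0.58).

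For Bmal1 the lowest were Per2 (-0.83, last of the 8870 genes), Tef (-0.71), Fam76a (-0.67), Ppp1r15b (-0.65), Mcrip2 (-0.65) and Per3 (-0.65). The highest were Wdr6 (0.65), Ttc9 (0.65), Kif3c (0.65), Nudt12 (0.63), Syk (0.63) and Ubash3b (0.63), none of them on a clock list, and Npas2 ranked 11 at 0.57. Clock, the partner of Bmal1, ranked 5056 at -0.07.

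**Figure D4:**
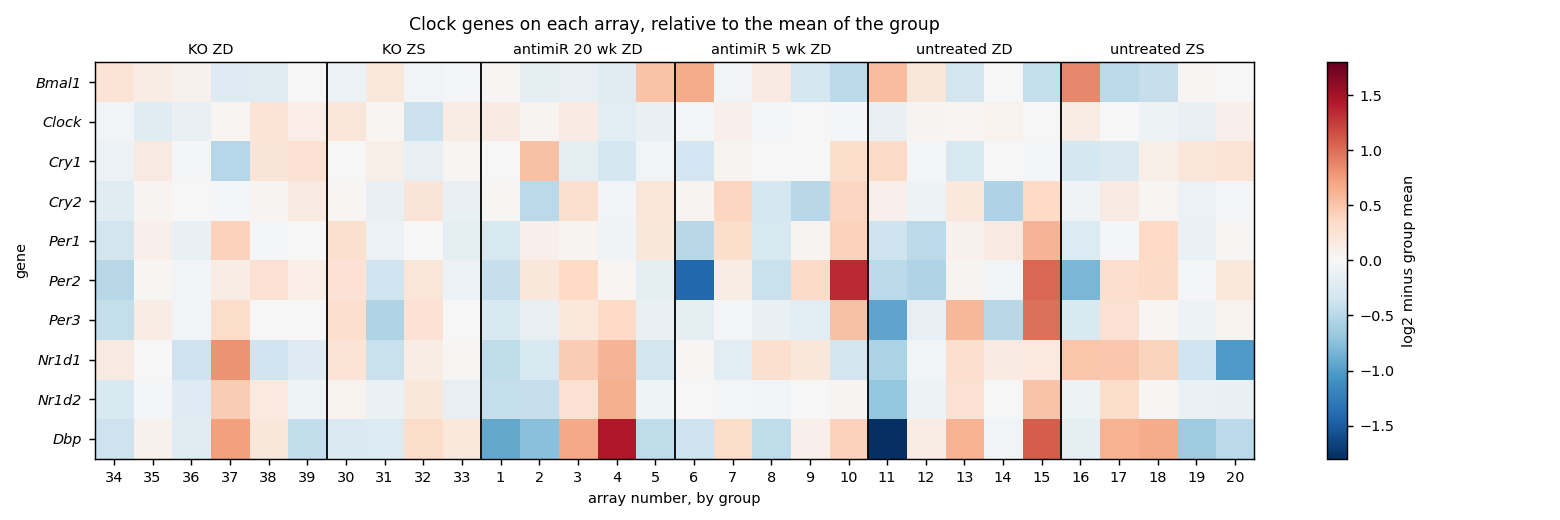
Group-centred log2 value of each clock gene (rows) in each of the 30 arrays (columns, by group), on a colour scale from -1.8 to 1.8. Dbp, Nr1d2 and Per3 are together low in untreated ZD rat 11 and high in rat 15, Bmal1 mostly shows the opposite sign to Per2, and Clock is nearly flat in unedited rats.

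Some rats at the extremes can be read off individually. Untreated ZD rat 11 had Dbp at 5.57, Nr1d2 at 8.50 and Per3 at 5.58, each the lowest of its group, and Bmal1 at 6.57, the highest. Untreated ZD rat 15 had the reverse, with Dbp at 8.46, Nr1d2 at 9.72, Per3 at 7.53 and Per2 at 9.65 the highest and Bmal1 at 5.58 the lowest of the group. Both ate the same diet and received the same carcinogen and no antimiR. Among rats given antimiR for 20 weeks, rat 4 had the highest Dbp (7.68), Nr1d2 (9.46) and Per3 (6.76) and the lowest Bmal1 (6.55), close to rats 2 (6.59) and 3 (6.62). Not every extreme rat followed this. Rat 5 had the highest Bmal1 of that group (7.28), but rats 1 and 2 had less Dbp. Untreated ZS rat 16 had the highest Bmal1 (6.63) and lowest Per2 (8.51) and Per3 (7.11) of its group. Its Dbp (8.31) and Nr1d2 (9.58) were at the group median. The hour at which each rat was sampled is not in the labels, and its part in these patterns was not tested.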

How the data were processed

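The deposited values are on a log2 scale for each probe set. The authors made them with Affymetrix Expression Console and RMA, per the submitters' processing notes, whose versions are not given. All 31099 probe sets on 30 arrays held no missing values and ran between 2.11 and 14.5. Of them, 20826 had 1 gene symbol, 436 several and 57 were controls, and 20758 of the first matched the RefSeq table by gene ID. The probe set with the highest mean stood for each of 14217 genes (4525 had several). Groups came from the titles, which number each rat once.

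One limma 3.58.1 model (R 4.3.3) held a coefficient per group over all 30 arrays, with no covariate. Correlations used group-centred values and 100000 two-sided permutations within groups. The fit was tested on simulated data. Arrays give no counts, so their number limits the precision.

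The members and the gene lists (further clock genes, glucocorticoid-induced genes and cell type markers) were chosen with earlier results of these data known. All 10 members are named throughout, up to 4 further clock genes or all that passed, up to 3 genes of another list by adjusted p, and the 6 most and 6 least like Bmal1 and Dbp; Krt5, Krt14, Myh11 and the fourth glucocorticoid-induced gene are named as examples of their lists. Alternatives were quantile normalization, a filter on dim genes, the mean of all probe sets, other probe sets, a smooth muscle covariate, fits within 1 normalization set, and leaving out each rat. Removing muscle levels from the correlations was added after seeing the data. Coordinates, promoters and the microRNA are from RefSeq, GRCr8. MiR-31 wild-type littermates were not analysed here.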

Additional observations from a re-analysis of the deposited data

Results flagged for a closer look

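Of 60 combinations of clock gene and group examined for a rat far from the rest of its group, 2 stood out, and chance gives about 1 in 20. Both were in the 5-week antimiR group. Clock read 10.75 in rat 7, while the other 4 lay between 10.63 and 10.65. Per3 read 7.49 in rat 10, against 6.94 in the next highest rat and 6.76 in the lowest. The ZD minus ZS difference of Nr1d1 differed between knockout and unedited rats by -1.51 log2 (limma adjusted p = 0.0169, between 0.008 and 0.0398 over its alternatives), with genotype, experiment and normalization set not separable.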

How the results depend on the processing

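No paired analysis was possible because each rat carries a number of its own. Among 1038 repeats for single members, 963 kept direction and side of the threshold, 28 lost the call, 12 gained it and 35 turned sign. None of the 35 passed the threshold before or after. Most repeats were of results without a call to lose. For diet in knockout rats calls were lost in 7 of 15 repeats for Per1, 5 of 15 for Dbp, 3 of 15 for Nr1d1, 1 of 17 for Nr1d2 and 1 of 18 for Clock. For diet in unedited rats this was 6 of 16 for Per3, 3 of 18 for Clock and 2 of 16 for Cry2. The genotype difference of Nr1d1 lost it in 0 of 24. Clock turned for 5 weeks of antimiR, to 0.014 with the mean of all probe sets, 0.021 with the smooth muscle covariate and 0.10 and 0.022 on other probe sets. On other probe sets Clock also gave -0.10 for 20 weeks, -0.12 for 20 against 5 weeks and -0.36 for the genotype difference. Cry2 gave 0.017 with the mean of probe sets and 0.14 on its other probe set for 20 weeks, and 0.11 on that probe set for 20 against 5 weeks. Other probe sets gave 0.0054 (5 weeks) and 0.056 (knockout diet) for Per2, and -0.080 (5 weeks) and -0.21 (genotype difference) for Per3. Leaving out each rat crossed 0 for 5 weeks in Bmal1 (-0.24 to 0.068), Per2 (-0.42 to 0.27) and Dbp (-0.12 to 0.61). It did so for 20 weeks in Per1 (-0.11 to 0.17), Per3 (-0.38 to 0.11), Cry1 (-0.067 to 0.15) and Cry2 (-0.25 to 0.011), and for the genotype difference in Bmal1 (-0.088 to 0.27), Per2 (-0.027 to 0.37) and Dbp (-0.70 to 0.022). The correlation of Clock with Bmal1 in unedited arrays was -0.14 with the mean of probe sets, not passing either way. With the smooth muscle covariate the count of members called was 0 in unedited and 1 in knockout rats for diet. Within the knockout arrays alone, where the differences were unchanged and the spread was estimated anew, it was 8. Leaving out each rat gave 2 to 7 members for diet in unedited rats, 2 to 5 for diet in knockout rats and 0 to 1 for 20 weeks of antimiR. In those fits 8.38% to 17.1%, 11% to 22.8% and 0.0633% to 2.67% of all genes passed, in the same order. The correlation of Per3 with Bmal1 in knockout arrays was -0.66 with the mean of all probe sets, no longer passing, and that of Cry2 was -0.75 with muscle levels removed, then passing. The causes of the other changes were not tested. Over all genes, the covariate gave 121 calls for diet in unedited rats, 1543 in knockout rats and 28 for 20 weeks of antimiR. Quantile normalization gave 2 for 5 weeks of antimiR, and the filter on dim genes 7 for 20 against 5 weeks. Leaving out ZD rat 14 gave 1191 for diet in unedited rats, and leaving out ZS knockout rat 32 gave 1566 for the knockout diet comparison and 615 for its difference from unedited rats. With a rat left out, calls ran between 9 and 379 for 20 weeks of antimiR, 0 and 20 for 20 against 5 weeks and 0 and 4 for 5 weeks. Groups of 4 to 6 arrays limit what could be detected.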
